A study of Mus musculus with 14 samples.

Results

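Potassium channel genes were followed through chromatin immunoprecipitation sequencing (ChIP-seq) peak lists of differentiating C2C12 cells, a mouse myoblast line that fuses into myotubes when serum is lowered. A peak belonged to the set when the gene named for it, the one with the nearest transcription start, had a symbol beginning with Kcn. Over the 10 lists this rule took 4040 of 517058 peaks. They named 97 Kcn genes out of 22838 genes named in all. The reference gene table holds 98 such symbols, 94 of them protein-coding, and Kcnmb4os2 was the 1 without a peak. By their symbols the genes fall into 40 voltage-gated subunits (Kcna to Kcnd, Kcnf to Kcnh, Kcnq, Kcns, Kcnv), 15 inward rectifiers (Kcnj), 8 calcium-activated subunits and their sodium- or pH-activated relatives (Kcnma, Kcnn, Kcnt, Kcnu), 14 two-pore subunits (Kcnk), 17 accessory subunits (Kcnab, Kcne, Kcnip, Kcnmb, Kcnrg) and 4 antisense or overlapping noncoding transcripts.

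Potassium channels let potassium ions leave or enter the cell along their gradient and so set the resting potential and end the action potential. Voltage-gated channels open on depolarisation, inward rectifiers hold the membrane near the potassium equilibrium, calcium-activated channels couple the potential to internal calcium, and two-pore channels carry a steady leak. Accessory subunits change the gating or the delivery of the pore-forming subunits to the membrane. In myoblasts an inward rectifier, Kcnj2, and a voltage-gated channel, Kcnh1, are known for the hyperpolarisation that precedes fusion.

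The series concerns a long noncoding RNA, Myolinc, and whether its interaction with the DNA- and RNA-binding protein TDP-43 bears on TDP-43 binding at promoters of muscle genes. All cells were C2C12 at day 2 in differentiation medium with 2% horse serum. The siMyolinc cells carried, in addition, a short interfering RNA against Myolinc at 10 nM, given before differentiation. Whether control cells received a control RNA or none is not stated in the labels. Antibodies were against TDP-43, the muscle transcription factors MyoD and Myogenin, and elongating RNA polymerase II, phosphorylated on serine 2 of its tail (Pol II S2P). TDP-43 had 3 control lists, and each of the other 7 groups had 1. The labels do not tell whether these 3 were separate cultures, so they may differ for technical reasons only. The p-values set the difference of the siMyolinc library beside those found with each of the 3 in its place. RNA was not measured, so neither channel expression nor the knockdown could be checked.

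Peaks rested on few sequence tags and the libraries differed in depth along with the conditions. If scores are scaled to 10000000 tags, which no header or label states, the control TDP-43 libraries held 962363 to 1394416 tags and the siMyolinc TDP-43 library 3253402. Control Pol II S2P held 1455038 tags against 3775523 in siMyolinc cells, and the MyoD and Myogenin libraries 3040129 to 3400139. The median Kcn peak had 6 to 8 tags in the TDP-43, control MyoD and control Pol II S2P lists, 11 in siMyolinc Pol II S2P, 16 in control Myogenin, 24 in siMyolinc MyoD and 133 in siMyolinc Myogenin. The siMyolinc MyoD and siMyolinc Myogenin peaks were 75 bp wide, against 217 to 249 bp elsewhere. Depth and the condition cannot be told apart for TDP-43 and Pol II S2P, nor peak width and the condition for MyoD and Myogenin.

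The promoter sequences below are those on which the promoter results turn. All are 300 bases, from 250 bases before to 50 bases after a transcription start, and were taken from RefSeq on build GRCm38.p6, the assembly that UCSC calls mm10. The table held 97 such windows for 72 Kcn genes. In 5 of these windows, each overlapped by a promoter peak of at least 2 control TDP-43 lists and of no other list, capitals mark CG dinucleotides, the mark of a CpG-rich start site. At Kcnh5 the siMyolinc TDP-43 list also had a peak of 7 tags, classed as 5' UTR, that was joined by overlap to the control peaks. Kcnt2 encodes a sodium-activated channel subunit, Kcnab2 a cytoplasmic beta subunit of voltage-gated channels, Kcnh5 and Kcnq5 voltage-gated subunits, and Kcnk15 a two-pore subunit.
Kcnt2, chr1:140245468-140245767, forward strand: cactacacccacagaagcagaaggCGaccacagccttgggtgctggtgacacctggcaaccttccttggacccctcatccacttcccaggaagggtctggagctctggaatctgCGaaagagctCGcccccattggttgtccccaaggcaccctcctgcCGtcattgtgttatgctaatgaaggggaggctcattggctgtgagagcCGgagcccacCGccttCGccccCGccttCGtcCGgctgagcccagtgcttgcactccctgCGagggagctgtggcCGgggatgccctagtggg
Kcnab2, chr4:152477500-152477799, reverse strand: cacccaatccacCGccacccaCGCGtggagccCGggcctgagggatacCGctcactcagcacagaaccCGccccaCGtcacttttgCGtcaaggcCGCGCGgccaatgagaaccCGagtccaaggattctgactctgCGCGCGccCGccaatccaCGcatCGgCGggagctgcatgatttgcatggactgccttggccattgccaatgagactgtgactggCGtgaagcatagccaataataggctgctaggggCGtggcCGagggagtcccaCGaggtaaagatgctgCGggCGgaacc
Kcnh5, chr12:75177283-75177582, reverse strand: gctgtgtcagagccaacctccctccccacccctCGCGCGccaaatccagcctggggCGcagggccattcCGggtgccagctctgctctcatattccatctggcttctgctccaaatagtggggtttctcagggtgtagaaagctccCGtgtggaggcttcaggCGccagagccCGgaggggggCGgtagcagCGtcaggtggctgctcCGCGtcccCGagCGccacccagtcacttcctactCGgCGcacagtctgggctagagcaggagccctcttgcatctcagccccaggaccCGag
Kcnq5, chr1:21961893-21962192, reverse strand: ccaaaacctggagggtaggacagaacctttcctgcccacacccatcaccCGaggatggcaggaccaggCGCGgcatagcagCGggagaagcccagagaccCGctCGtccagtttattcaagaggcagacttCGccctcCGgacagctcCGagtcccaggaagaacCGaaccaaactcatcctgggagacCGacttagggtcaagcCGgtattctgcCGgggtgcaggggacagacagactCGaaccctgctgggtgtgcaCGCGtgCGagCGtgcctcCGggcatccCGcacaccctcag
Kcnk15, chr2:163853500-163853799, forward strand: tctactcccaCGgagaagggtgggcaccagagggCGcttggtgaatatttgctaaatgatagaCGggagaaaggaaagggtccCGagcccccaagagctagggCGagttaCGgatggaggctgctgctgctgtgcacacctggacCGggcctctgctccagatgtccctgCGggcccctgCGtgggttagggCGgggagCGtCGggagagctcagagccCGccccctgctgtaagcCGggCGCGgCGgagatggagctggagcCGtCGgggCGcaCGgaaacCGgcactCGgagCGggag

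In the next windows capitals mark E-boxes, CANNTG, the letters that MyoD and Myogenin recognise. Kcnj2 is shown because its window was overlapped by peaks of control TDP-43, MyoD and Myogenin. Kcnk16, a two-pore subunit of endocrine cells, is shown because its window was overlapped by TDP-43 peaks of a control list and of the siMyolinc list.
Kcnj2, chr11:111065914-111066213, forward strand: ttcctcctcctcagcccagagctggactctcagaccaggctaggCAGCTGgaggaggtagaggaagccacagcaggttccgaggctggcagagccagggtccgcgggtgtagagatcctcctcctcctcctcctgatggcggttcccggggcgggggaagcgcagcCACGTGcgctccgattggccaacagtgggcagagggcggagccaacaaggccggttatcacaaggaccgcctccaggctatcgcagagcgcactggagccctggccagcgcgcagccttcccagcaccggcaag
Kcnk16, chr14:20269220-20269519, reverse strand: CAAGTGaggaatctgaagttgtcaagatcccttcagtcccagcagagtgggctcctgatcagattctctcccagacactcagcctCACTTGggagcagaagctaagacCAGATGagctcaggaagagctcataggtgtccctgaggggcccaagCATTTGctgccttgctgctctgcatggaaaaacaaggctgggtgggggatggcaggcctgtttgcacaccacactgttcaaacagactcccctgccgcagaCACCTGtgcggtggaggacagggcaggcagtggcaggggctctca

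The 15 Kcn windows overlapped by a promoter peak of any control TDP-43 list belonged to 14 genes and had a median of 18 CG dinucleotides and 62.7% G+C. All 97 Kcn windows had medians of 9 and 58.0%, and all 32851 windows had 7 and 52.7%. The windows of any gene overlapped by control TDP-43 promoter peaks were CG-rich as well, with medians of 16 and 61.0% over 1102 windows. The TG repeat that TDP-43 binds in RNA, searched as TGTGTG or CACACA, was present in 1 of the 15 windows, against 17.4% of the 1102 and 21.1% of all windows. A CANNTG E-box, the same on both strands, was in 73.2% of Kcn windows and 72.3% of all windows. Its form CAGCTG was in 24.7% and 16.3%. Kcnj2 held CAGCTG at -206 and CACGTG at -84 from the start, and Kcnk16 held 5 E-boxes, none of them CAGCTG. Whole windows were searched, not the peaks within them. The control Myogenin peak in the Kcnj2 window, from chr11:111066114, began downstream of both E-boxes. The control MyoD peak there, from chr11:111066052, began downstream of CAGCTG. The control Myogenin promoter peaks overlapped 7 Kcn windows of 4 genes, and CAGCTG was in 6 of the 7. Over all genes that list overlapped 687 windows of 643 genes, and 17.2% held it. Windows of 1 gene were counted separately, and no count by gene was made.

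Among control TDP-43 peaks, those of Kcn genes lay in promoters more often than the peaks of the same list as a whole, while after Myolinc knockdown they did not. The promoter class is the annotation's window around a transcription start. It held 23 of 239 Kcn peaks in control TDP-43 replicate 1 (9.62%, 95% Wilson interval 6.50 to 14.0), 9 of 104 in replicate 2 (8.65%, 4.62 to 15.6) and 10 of 73 in replicate 3 (13.7%, 7.61 to 23.4). In the siMyolinc TDP-43 list it held 2 of 183 (1.09%, 0.30 to 3.90). The same class took 4.37%, 4.95% and 5.22% of all peaks in the controls and 2.53% in the siMyolinc list. The 3 controls therefore all lay above the siMyolinc list, at 10.7% ± 2.68 (SD, n = 3) for Kcn peaks and 4.84% ± 0.436 for all peaks. Divided by the share over all peaks, the Kcn promoter share was 2.20, 1.75 and 2.62 in the controls and 0.432 in the siMyolinc list. Each of these differences had an exact two-sided permutation p of 0.25, the smallest that 3 libraries against 1 allow. The intervals account for counting error and nothing else, and copies made by PCR may have been counted as separate tags. The interval of replicate 2 included the share over all its peaks, 4.95%, while those of replicates 1 and 3 lay above theirs. With every list held to its 8162 best-scoring peaks, the length of the shortest, the Kcn promoter share was 12.1%, 8.43% and 13.7% in the controls and 0 of 53 peaks in the siMyolinc list, a count that allows up to 5.66%.

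In the other antibodies the Kcn promoter share followed no single direction. It was 0.544% (3 of 551) in control MyoD and 1.81% (15 of 831) in siMyolinc MyoD, beside 1.43% and 2.69% of all peaks. Myogenin had 1.15% (11 of 953) in control and 3.55% (5 of 141) in siMyolinc cells, beside 1.44% and 3.10%. In Pol II S2P it was 8.05% (7 of 87) in control and 1.37% (12 of 878) in siMyolinc cells, beside 3.76% and 2.00%. Control Pol II S2P thus resembled control TDP-43 in this share, and its Kcn share was 2.14 times that of all its peaks. With 1 library a group these differences have no replicate check.

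**Figure D1:**
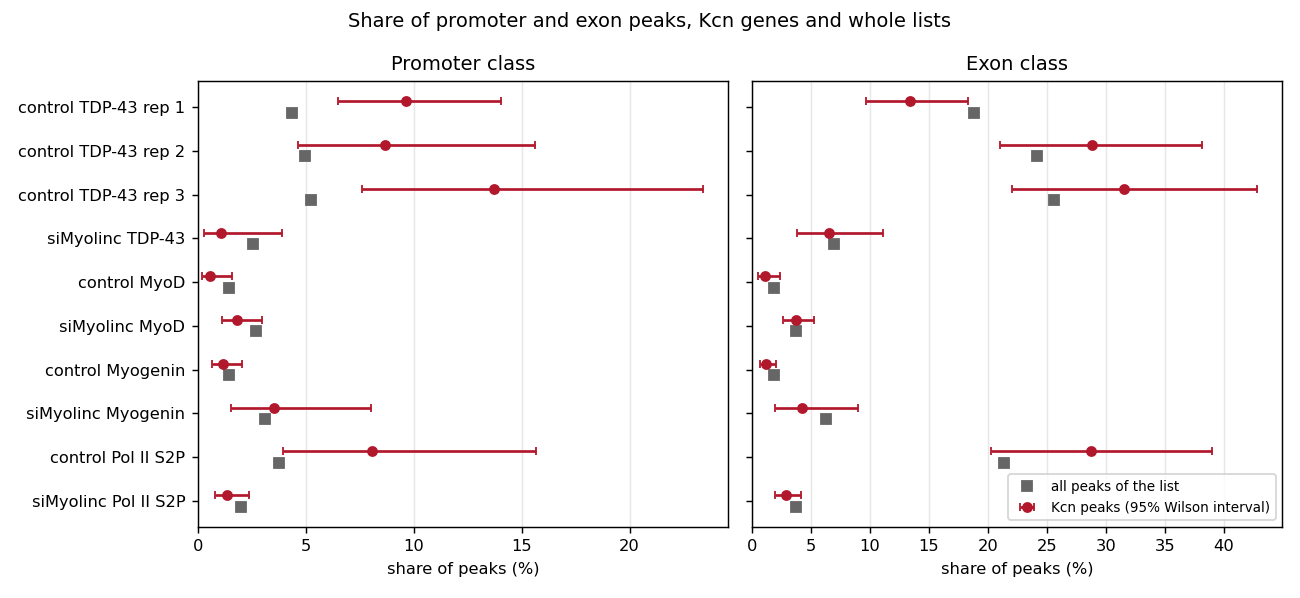
Share of peaks in the promoter class (left) and exon class (right), in percent, for each of the 10 lists. Red points are Kcn peaks with 95% Wilson intervals and grey squares all peaks of the list. The 3 control TDP-43 lists and control Pol II S2P have Kcn promoter shares of 8.05% to 13.7%, above their grey squares. The interval of control TDP-43 replicate 2 includes its grey square.

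Counted by gene, 18, 8 and 10 of the 94 protein-coding Kcn genes had a promoter peak in control TDP-43 replicates 1, 2 and 3, where 5.09%, 2.12% and 1.65% of all 21896 protein-coding genes did. These counts are 19.1%, 8.51% and 10.6% of the Kcn genes. After knockdown 2 of 94 had one (2.13%), against 2.49% of all genes. With the noncoding names included, the genes with a promoter peak numbered 20, 9 and 10 in control and 2 in siMyolinc cells (exact permutation p = 0.5, two-sided). For MyoD the count was 3 of 94 in control and 15 in siMyolinc cells, where 4.01% and 11.2% of all genes had a promoter peak. Myogenin gave 9 and 5, beside 6.46% and 2.46%. Pol II S2P gave 7 and 11, beside 1.55% and 8.89%. The 95% Wilson intervals of the Kcn shares lay above the share of all genes in the 3 control TDP-43 lists and control Pol II S2P, and included it in the other 6 lists.

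Genes were then counted over lists, whichever of their starts held the peak. A promoter peak in at least 2 of the 3 was found for 11 protein-coding Kcn genes (11.7%), against 1.6% of all genes, and in all 3 for Kcnab2, Kcnd3 and Kcnt2 (3.19%), against 0.288%. For Kcnab2 and Kcnd3 the lists did not all name the same start, as given below. The other 8 were Kcnd2, Kcnh5, Kcnh8 and Kcnq5 among the voltage-gated genes, the inward rectifier Kcnj2 and the two-pore genes Kcnk7, Kcnk9 and Kcnk15. The noncoding Kcnmb4os1 also had one in replicates 1 and 2. Across all 10 lists, 24 of 94 genes had a promoter peak in at least 2 (25.5%), against 9.19% of all genes. Kcnh8 had one in 5 lists, Kcnab2, Kcnd3 and Kcnj2 in 4, and Kcnd1, Kcnj3, Kcnk9, Kcns2 and Kcnt2 in 3. The others, with 2 lists, included Kcna1, Kcna6, Kcnip3, Kcnj6, Kcnj10, Kcnj16, Kcnk16, Kcnmb1 and Kcns3. In all, 97 promoter peaks named 52 Kcn genes, and for 96 of them the promoter was that of the named gene's own transcript. The exception was a control TDP-43 peak named for Kcnab2 that lay at the promoter of Nphp4.

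**Figure D2:**
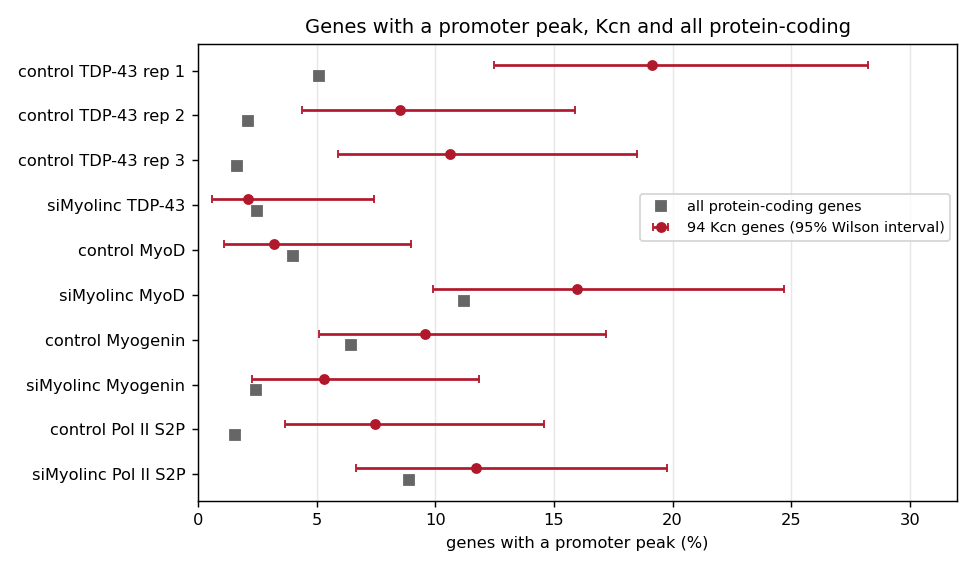
Percent of genes with a promoter peak in each list. Red points are the 94 protein-coding Kcn genes with 95% Wilson intervals and grey squares all 21896 protein-coding genes. The intervals of the 3 control TDP-43 lists and control Pol II S2P lie above the grey squares, which are at 5.09% or less.

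Kcnt2 gave the most regular promoter signal. Its peaks had 11, 7 and 8 tags in control TDP-43 replicates 1, 2 and 3, centred at -371, -520 and -564 bp from a start that lies downstream of the one shown above, and together spanned chr1:140245584-140246010. No other list had a peak there, including siMyolinc TDP-43. At Kcnd3, a subunit of the transient outward current, replicates 1 and 2 had peaks of 10 and 5 tags centred 55 and 60 bp after the start of 1 transcript, and replicate 3 had 7 tags at another start of the gene. A control Myogenin peak of 10 tags lay at -371 bp from the former start. At Kcnab2, replicates 2 and 3 had 5 and 4 tags at the start shown above, at -198 and -64 bp. Replicate 1 instead had 7 tags at a downstream start, 59 bp after it, where siMyolinc MyoD had 35 tags at -35 bp.

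At the Kcnj2 start, peaks came from 3 antibodies in control cells. TDP-43 replicate 1 had 9 tags at -110 bp and replicate 3 had 5 at -188 bp, MyoD had 7 at 3 bp, and Myogenin had 19 at 59 bp and 8 at -620 bp. The first 4 of these overlapped in a chain. The TDP-43 replicate 1 peak was chr11:111065930-111066178 and the larger Myogenin peak chr11:111066114-111066332. None of the 4 siMyolinc lists had a Kcnj2 promoter peak. Few control peaks of any gene overlapped a siMyolinc peak of the same antibody. The shares were 5.88% and 7.36% for TDP-43 replicates 1 and 3, 1.77% for MyoD and 0.355% for Myogenin. Peaks named for Kcnj2 numbered 29 in siMyolinc MyoD and 34 in siMyolinc Pol II S2P. Over all lists 160 of the 167 Kcnj2 peaks were intergenic. Kcnh8, a voltage-gated subunit, had promoter peaks of 9 and 5 tags in control TDP-43 replicates 1 and 3, 6 in control MyoD, 6 in control Pol II S2P and 13 in siMyolinc Pol II S2P, all between -512 and -182 bp. Kcnh5 had 5 and 15 tags in replicates 2 and 3, and the latter, at -54 bp, was the second highest tag count of any Kcn promoter peak in the control TDP-43 lists. The highest, 16 tags in replicate 1, was shared by Kcnk9 (-713 bp) and Kcnmb4os1 (70 bp). At the Kcnh5 start siMyolinc TDP-43 had 7 tags in a peak of the 5' UTR class, joined by overlap to the control peaks.

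The 2 siMyolinc TDP-43 promoter peaks were those of Kcnk16, with 7 tags at -75 bp where control replicate 1 had 10 at -22 bp, and of Kcnj3, with 6 tags at -703 bp where control replicate 1 had 5 at -677 bp. Kcnj3, a subunit of G-protein-gated inward rectifiers, also had 63 tags at -838 bp in siMyolinc Myogenin. Both lay at sites already listed in control replicate 1. High tag counts at Kcn promoters in the lists of the other antibodies were those of Kcng4 (151 tags) and Kcne2 (121) in siMyolinc Myogenin, Kcnab2 (35) and Kcnj12 (34) in siMyolinc MyoD, and Kcnj2 (19) and Kcnk1 (17) in control Myogenin. In siMyolinc Pol II S2P they were Kcna10 (17) and Kcnip3 (15), and in control MyoD Kcnj16 (8) and Kcnj2 (7). Control Pol II S2P had 7 tags at both Kcnd1 and Kcnj10.

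Exon peaks were common in the shallow libraries for Kcn genes and for all genes alike. They made up 13.4%, 28.8% and 31.5% of Kcn peaks in the control TDP-43 lists and 6.56% in the siMyolinc list (24.6% ± 9.78 against 6.56%, exact permutation p = 0.25, two-sided). Over all peaks these shares were 18.8%, 24.1% and 25.6% against 6.93%. Pol II S2P had 28.7% in control and 2.85% in siMyolinc cells, beside 21.4% and 3.76% of all peaks. Divided by the share over all peaks, the Kcn exon share was 0.713, 1.20 and 1.23 in the controls and 0.947 in the siMyolinc TDP-43 list, inside their range (exact permutation p = 1). Among Kcn exon peaks, 34.4%, 36.7% and 34.8% in the control TDP-43 lists lay in the last exon of their transcript, against 24.6%, 26.8% and 26.8% of all exon peaks. Transcripts of up to 3 exons held 14 of 32, 14 of 30 and 12 of 23 Kcn exon peaks in these lists, against 759 of 5579, 396 of 2550 and 321 of 2091 of all exon peaks.

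Intron peaks ran the other way, at 36.0%, 24.0% and 27.4% of Kcn peaks in control TDP-43 and 41.5% after knockdown (29.1% ± 6.16 against 41.5%, exact permutation p = 0.25). All peaks of the lists had 29.3% ± 2.71 and 40.2%. The Kcn share of all peaks was 0.805%, 0.984% and 0.894% in control TDP-43 (0.894% ± 0.0896) and 0.733% in siMyolinc cells (exact permutation p = 0.5), and 0.689% to 0.829% in the 6 lists of the other antibodies. Kcn genes make up 1.02% of the summed length of protein-coding genes and are longer, with a median of 32691.5 bp against 17149 bp. Intergenic peaks numbered from 15 of 73 (20.5%) in control TDP-43 replicate 3 to 76 of 141 (53.9%) in siMyolinc Myogenin. The annotation classes inside genes held 2145 Kcn peaks, but 365 of these lay in another gene's transcript, such as Stk3 for Kcns2 (32 peaks), Trappc9 for Kcnk9 (31) and Abcc8, the partner subunit of Kcnj11, for Kcnj11 (10). For 1779 (82.9%) the transcript was the named gene's own. Kcn peaks inside genes or at promoters numbered 5.18, 6.62 and 7.11 per 1000 peaks in control TDP-43, 5.79 in control Pol II S2P, and 3.18 to 4.10 in the other 6 lists.

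By distance, Kcn peaks of the control TDP-43 and control Pol II S2P lists were nearer to starts than those of the other lists. Within 1000 bp of the named start lay 17.6%, 23.1% and 28.8% of Kcn peaks in control TDP-43 and 25.3% in control Pol II S2P, against 9.94%, 11.8%, 11.7% and 8.82% of all peaks. In siMyolinc TDP-43 the shares were 5.46% and 4.75%. The remaining lists had 0.907% to 4.09% for Kcn peaks. At the far end, 45.2% of control Myogenin and 41.4% of control MyoD Kcn peaks lay more than 100 kb from the start, against 36.4% and 32.9% of all peaks, and for such peaks the nearest gene is a label of position alone. In control TDP-43 replicates 1 and 2 the far shares were also higher for Kcn peaks, 26.4% and 23.1% against 21.0% and 19.0% of all peaks. In replicate 3 and control Pol II S2P they were lower, 16.4% and 18.4% against 18.6% and 23.1%.

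**Figure D3:**
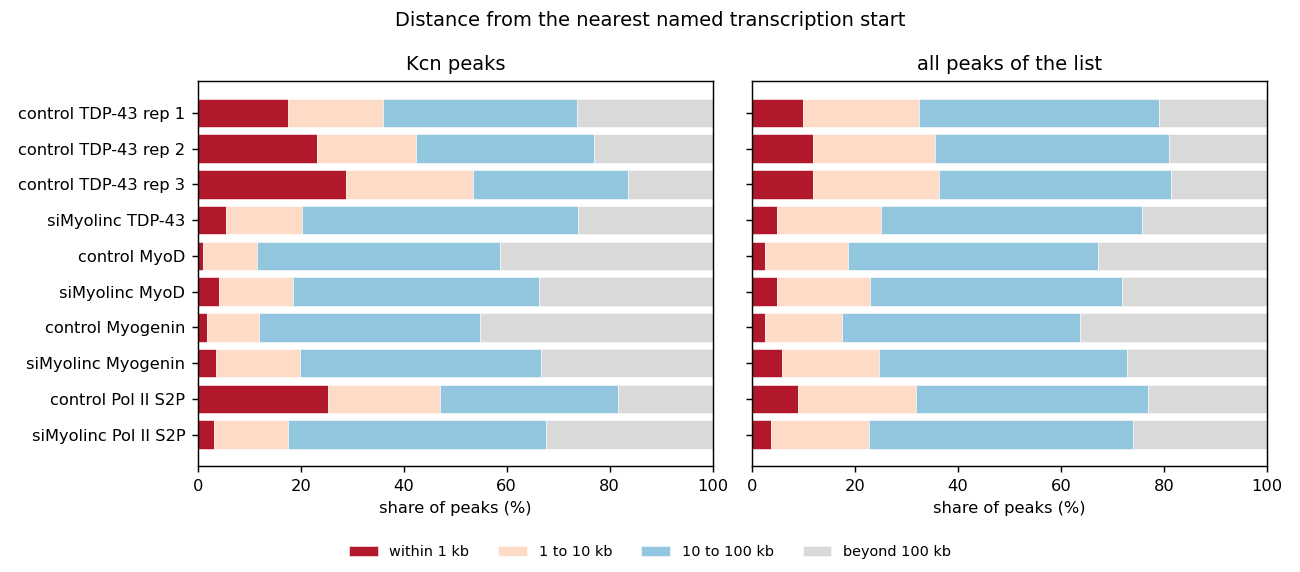
Stacked bars give, for each list, the percent of peaks by distance from the named transcription start, for Kcn peaks (left) and all peaks (right). The red part, within 1 kb, is 17.6% to 28.8% of Kcn peaks in control TDP-43 and 5.46% in siMyolinc TDP-43.

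Counting any peak, 75, 55 and 53 of the 94 protein-coding Kcn genes were named in control TDP-43 replicates 1, 2 and 3, against 49.3%, 26.8% and 22.3% of all genes, and 70 in siMyolinc TDP-43, against 45.1%. The numbers were 79 and 91 for MyoD, control before siMyolinc (all genes 64.9% and 75.6%), 86 and 59 for Myogenin (73.2% and 39.7%), and 50 and 87 for Pol II S2P (26.8% and 77%). With noncoding names, 78, 57 and 54 genes were named in control TDP-43 and 71 after knockdown (63.0 ± 13.1 against 71, exact permutation p = 1). The difference of -8, control minus siMyolinc, changed direction to 9.67 with lists of equal length and to 3.33 with peaks inside genes or promoters only. A peak in all 10 lists was found for 23 of the 94, or 24.5%, against 5.83% of all genes. Kcn genes are the longer set, as given above, and the part of gene length in these counts was not tested.

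Voltage-gated subunits accounted for 1933 of the 4040 peaks (47.8%), and all 40 genes had at least 1. Control TDP-43 held 127, 65 and 37 of them and the siMyolinc list 78. MyoD held 276 and 387, Myogenin 452 and 66, and Pol II S2P 47 and 398, control before siMyolinc. Promoter, 5' UTR and exon classes together held 22.8%, 46.2% and 48.6% of these peaks in control TDP-43 and 40.4% in control Pol II S2P, where all peaks had 24.1%, 30.3%, 32.1% and 26.1%. In siMyolinc TDP-43 they held 12.8%, against 9.80% of all peaks, and in the other 5 lists 1.09% to 6.72%. Replicate 1 was thus below the share of all its peaks and the other 3 of these lists from control cells above theirs. Promoter peaks in control TDP-43 named 7, 5 and 4 voltage-gated genes and none in siMyolinc TDP-43, against 1 in control MyoD and 10 in siMyolinc MyoD. The siMyolinc TDP-43 list did have 2 voltage-gated peaks of the 5' UTR class, at Kcnh5 and Kcns2, with 7 tags each. Both were at sites with control TDP-43 promoter peaks, at Kcns2 joined only through peaks of other lists. Counts of the promoter class alone leave out these 2 peaks. The part of the class labels in the difference was not tested.

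Among voltage-gated genes with peaks in all 10 lists, Kcnh8, Kcnd2 and Kcnv1, a silent modifier subunit, had the most peaks. Kcna4, a subunit of the transient outward current that was looked up after its values were seen, had 154 peaks in 8 lists, 147 of them intergenic. Kcnh8 had 6, 5 and 1 peaks in control TDP-43 and 5 after knockdown, 27 and 27 for MyoD, 42 and 4 for Myogenin, and 5 and 30 for Pol II S2P. Of its 152 peaks 73 were intronic and 72 intergenic. Kcnd2, a subunit of the transient outward current, had 11, 5 and 2 peaks in control TDP-43 and 3 after knockdown, with 47 in control Myogenin against 1 in siMyolinc Myogenin. Kcnv1 had 133 peaks, 127 of them intergenic.

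Inward rectifiers held 673 peaks. Control TDP-43 had 38, 12 and 8 and siMyolinc TDP-43 31, MyoD 90 and 127, Myogenin 183 and 25, and Pol II S2P 12 and 147. The promoter, 5' UTR and exon classes held 31.6%, 41.7% and 75.0% in control TDP-43, 66.7% in control Pol II S2P and 12.9% in siMyolinc TDP-43, each above the share of all peaks of its list given for the voltage-gated genes. The high shares rest on few peaks, 6 of 8 in replicate 3 and 8 of 12 in Pol II S2P. Kcnj2 had the most peaks of any Kcn gene, 167, of which 160 were intergenic, with 53 in control Myogenin and 6 in siMyolinc Myogenin. Kcnj16, its neighbour on chromosome 11, had 59 peaks, 21 of them in control Myogenin and 1 in siMyolinc Myogenin. Kcnj12, a strong inward rectifier of muscle, had 42 peaks in all 10 lists, 8 of them in exons.

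Calcium-activated subunits held 355 peaks over 8 genes with a median length of 120824 bp, from Kcnn4 (15387 bp) to Kcnma1 (712823 bp). Control TDP-43 had 18, 10 and 9 and siMyolinc TDP-43 16. MyoD had 46 and 72, Myogenin 84 and 6, and Pol II S2P 5 and 89. Introns took 50.0%, 40.0% and 22.2% of them in control TDP-43 and 75.0% in siMyolinc TDP-43, and 66.3% to 82.6% in the 5 remaining lists other than control Pol II S2P (40.0%, 2 of 5). For the promoter, 5' UTR and exon classes together the control TDP-43 shares were 27.8%, 20.0% and 44.4%, where all peaks had 24.1%, 30.3% and 32.1%. Replicate 2 was thus below the share of all its peaks. Control Pol II S2P had 40.0% (2 of 5) and siMyolinc TDP-43 6.25%, against 26.1% and 9.80% of all peaks. Kcnn2, a small-conductance channel, had 99 peaks in all 10 lists, 54 of them intergenic, with 31 in control and 1 in siMyolinc Myogenin. Kcnt1 had 33 peaks and Kcnt2 27, and Kcnt2's 3 promoter peaks were the only promoter peaks of this subfamily in the TDP-43 lists.

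Two-pore subunits held 434 peaks, with 27, 10 and 11 in control TDP-43 and 27 in siMyolinc TDP-43. MyoD had 59 and 106, Myogenin 71 and 10, and Pol II S2P 14 and 99. Promoter, 5' UTR and exon classes held 29.6%, 30.0% and 45.5% in control TDP-43 and 7.41% after knockdown. Replicate 2 and the siMyolinc list were near the shares of all their peaks, 30.3% and 9.80%, and replicates 1 and 3 above theirs. Replicate 2 had no two-pore promoter peak, whereas replicates 1 and 3 shared those of Kcnk7, Kcnk9 and Kcnk15. Kcnk9, an acid-sensitive leak channel, had 98 peaks in all 10 lists, and Kcnk2, a stretch- and lipid-sensitive channel, 74. Kcnk12, a subunit that stays silent alone, had 49 peaks, 32 of them intergenic.

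Accessory subunits held 600 peaks and were the subfamily with the fewest exon peaks. Control TDP-43 had 25, 5 and 7 and siMyolinc TDP-43 29, MyoD 76 and 134, Myogenin 150 and 33, and Pol II S2P 8 and 133. None of the TDP-43 peaks, control or siMyolinc, lay in an exon or 5' UTR, and introns took 57.6% to 64.9% in the MyoD, Myogenin and siMyolinc Pol II S2P lists. Kcnip4, a calcium-binding partner of Kcnd channels and the longest gene of the set at 1135620 bp, had 150 peaks, 108 of them intronic, with 55 in control Myogenin and 13 in siMyolinc Myogenin. Kcnab2 had 45 peaks in all 10 lists, and Kcnmb2, a beta subunit of the large-conductance calcium-activated channel, 91 in 8 lists. The noncoding transcripts had 45 peaks, 23 of them at Kcnq1ot1, the imprinted antisense transcript of Kcnq1, which cannot be told apart from Kcnq1 here because ChIP-seq peaks carry no strand. Kcnmb4os1 had 21 and Kcnd3os 1.

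**Figure D4:**
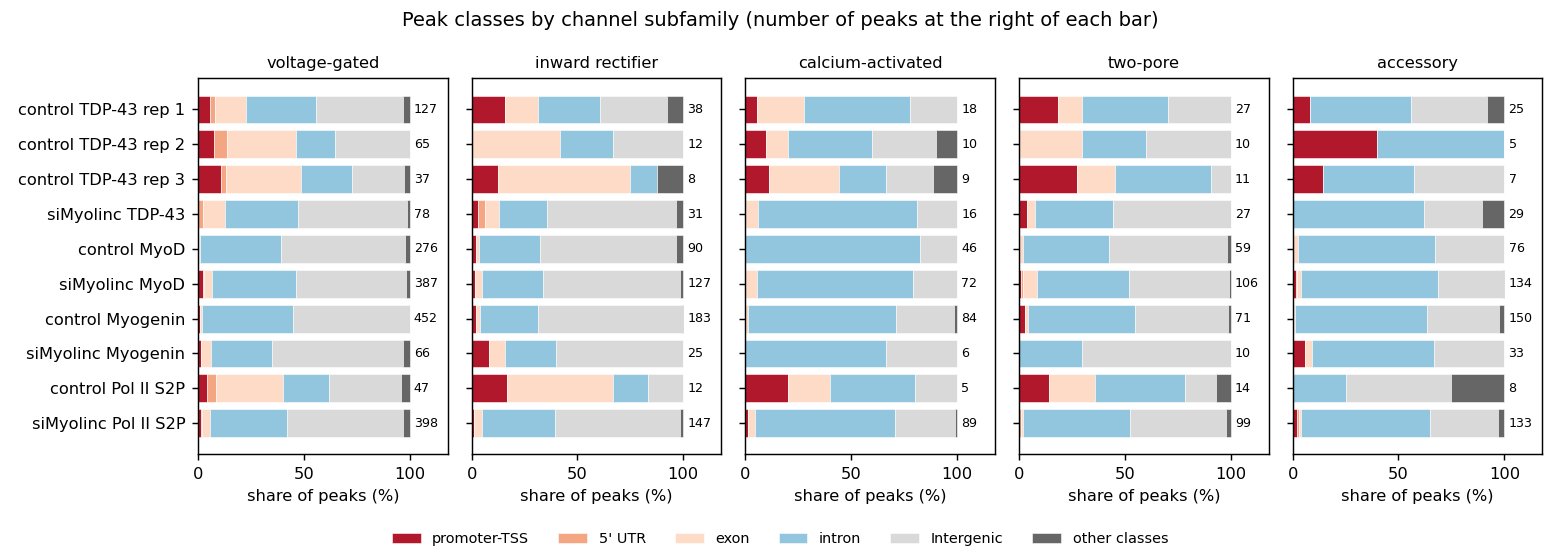
Classes of Kcn peaks by subfamily, as percent of the peaks of that subfamily in each list, with the number of peaks beside each bar. Red, orange and pale parts (promoter, 5' UTR, exon) are widest in the 3 control TDP-43 lists and control Pol II S2P for the voltage-gated genes, 22.8% to 48.6%, and several bars rest on fewer than 15 peaks.

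Peaks annotated to the genes' own transcripts were counted, with those of the promoter and gene-end classes, which can lie outside the gene. Over the 10 lists together, inward rectifier and two-pore genes had 269 and 257 such peaks per Mb of gene. The value was 164 for voltage-gated, 131 for calcium-activated and 134 for accessory genes. The subfamilies with the higher densities also had the smaller summed lengths, 0.763 and 0.712 Mb against 1.83 to 4.82 Mb. These are sums over lists of unequal length and carry no replicate error.

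Genes known for roles in myoblasts or muscle fibres showed no common pattern. Kcnj11, the pore of the ATP-sensitive channel, had peaks in all 10 lists, 26 in total, of which 11 were exonic and 10 lay in transcripts of Abcc8. Its best peak, 279 tags in siMyolinc Myogenin, was in intron 31 of 38 of Abcc8, chr7:46108527-46108601, and was the highest tag count of any Kcn peak. Kcnj12 had a siMyolinc MyoD promoter peak of 34 tags at -243 bp, and no other list had one. Kcnh1 had 5, 1 and 1 peaks in control TDP-43 and 4 after knockdown, 12 and 20 for MyoD, 11 and 0 for Myogenin, and 2 and 18 for Pol II S2P. Its promoter was listed in siMyolinc MyoD alone, with 9 tags at -269 bp. Kcnma1, the large-conductance channel, had 108 peaks, 99 of them intronic and none at a promoter. Kcnn3, a small-conductance channel of immature muscle, had 44 peaks in 6 lists, 3 of them in control TDP-43 replicate 1 and none in siMyolinc TDP-43. Kcnc4 had 29 peaks in 5 lists and 1 promoter peak, 11 tags in siMyolinc Pol II S2P. Its muscle partner Kcne3 had 3 peaks in all, and Kcna7, a voltage-gated channel of muscle, 1, in control Myogenin.

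Joined by overlaps of at least 1 bp, the 4040 peaks formed 3380 sites in 1 list, 203 in 2 and 68 in at least 3. Of the 68 sites, 64 included a control TDP-43 list, 15 the siMyolinc TDP-43 list and 32 the control Pol II S2P list (94.1%, 22.1% and 47.1%). Joined in the same way, the peaks of all genes gave 7922 sites in at least 3 lists, of which 89.8%, 22.9% and 43.5% did. Voltage-gated genes had 36 of them, and 36 of the 68 (52.9%) touched a promoter, 5' UTR or exon, against 41.4% of the 7922. The site in most lists was at exon 3 of 4 of Kcns1, a modifier subunit, chr2:164167723-164168301. Its best peaks had 7, 6 and 6 tags in control TDP-43, 11 in siMyolinc TDP-43, 43 in siMyolinc MyoD, 122 in siMyolinc Myogenin and 10 in siMyolinc Pol II S2P, and control MyoD, Myogenin and Pol II S2P had none. Sites in 6 lists were the 3' UTR of Kcnab3, an intergenic site near Kcnn2, and exon 2 of 5 of Kcnc2 (7, 5 and 6 tags in control TDP-43, 6 in siMyolinc TDP-43, 6 in control and 7 in siMyolinc Pol II S2P). Kcnh1 intron 7 of 10 and the single exon of Kcna3 were in both TDP-43 conditions as well, with 8 and 9 tags in the siMyolinc list.

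The highest tag counts of any Kcn peak in the control TDP-43 and control Pol II S2P lists were not at a channel gene. They came from a mouse gamma satellite repeat (GSAT_MM) 372910 to 372926 bp from the Kcnh5 start, chr12:74804279-74804531, with 63, 60 and 56 tags in control TDP-43 and 45 in control Pol II S2P. The siMyolinc Myogenin list also had 45 tags there, and siMyolinc TDP-43 had no peak. Reads of such repeats can belong to many copies, so the position is uncertain. Leaving out all peaks in repeats, 66, 28 and 16 in the control TDP-43 lists and 57 in the siMyolinc list, gave Kcn promoter shares of 13.3%, 11.8% and 17.5% against 1.59%.

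Of 61 Kcn sites in at least 2 control TDP-43 lists, 6 were also in siMyolinc TDP-43, 17 in control Pol II S2P and 11 in control Myogenin, and 17 were in all 3 control TDP-43 lists. The first 3 counts are 9.84%, 27.9% and 18.0%, against 10.3%, 29.6% and 8.19% of the 7035 such sites of all genes. Over all genes, 1643 sites were in all 3 control TDP-43 lists. Of the 17 Kcn sites, 4 were also in siMyolinc TDP-43 (23.5%), against 11.4% of the 1643. Exon 1 of 2 of Kcnv2, a modifier subunit, had 23, 7 and 6 tags in replicates 1 to 3 and 36 in siMyolinc MyoD. Exon 3 of 3 of Kcnj12 had 16, 8 and 7 tags and 12 in siMyolinc Pol II S2P. Intron 2 of 5 of Kcnk2 had 19, 7 and 5 tags, and intron 3 of 3 and an adjoining exon of Kcnc1, a fast delayed rectifier, 13, 9 and 8, with no peak in another list. The start of Kcna6 had 10, 9 and 7 tags and 19 in siMyolinc MyoD, and that of Kcnv1 9, 7 and 9 and 10 in control Pol II S2P. Intron 1 of 2 of Kcna2, in a CpG island, had 11, 7 and 5, with 18 in siMyolinc MyoD and 21 in siMyolinc Pol II S2P. Exon 1 of 2 of Kcng1 had 24 and 11 tags in replicates 1 and 2 alone, and the end of Kcnj11 toward Abcc8 16 and 7 in replicates 1 and 3, with 8 in control Myogenin and 11 in control Pol II S2P. A (CA)n repeat near Kcnv2 had 11, 7 and 6 tags and 9 in control Pol II S2P. None of these sites was in the siMyolinc TDP-43 list. Those of Kcns1, Kcnn2, Kcnc2, Kcnh1 and Kcna3 and the Kcnh5 start, given above, were.

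**Figure D5:**
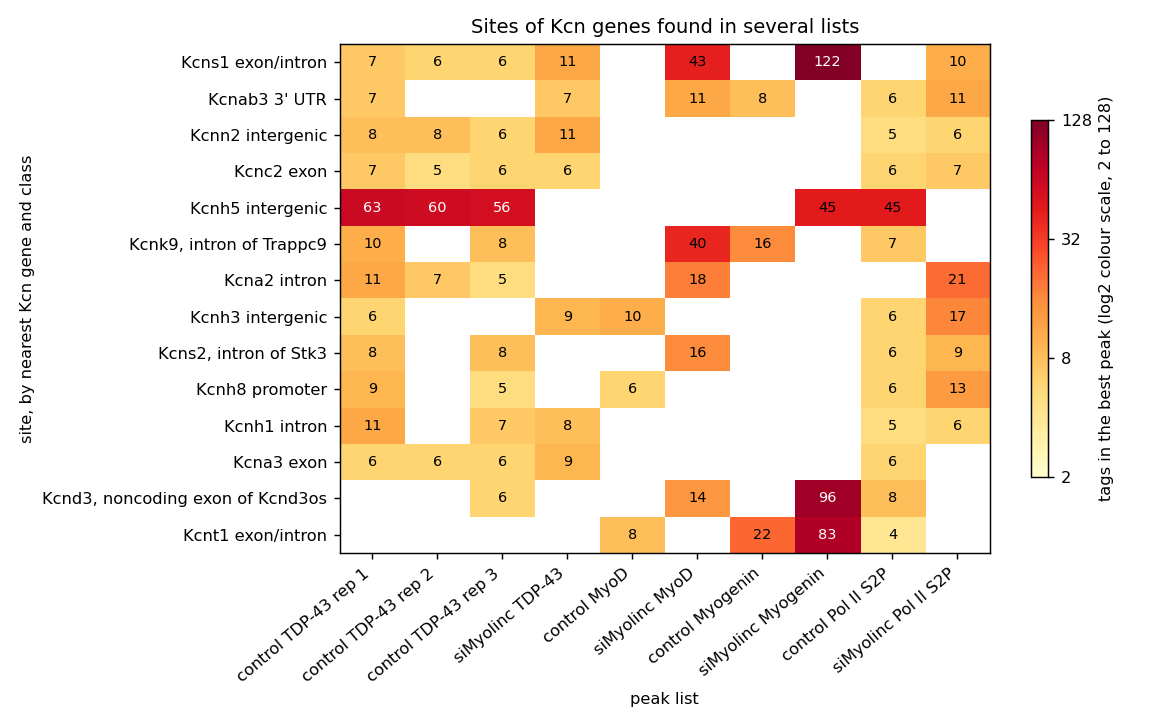
Tags in the best peak of each list (columns) at 14 Kcn sites found in at least 4 lists (rows, by gene and class), on a log2 colour scale, with white for no peak. The Kcnh5 satellite site has 45 to 63 tags in 5 lists, and most control TDP-43 entries hold 5 to 11 tags.

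Kcn peaks were found again about as often as the peaks of their lists. Between pairs of control TDP-43 lists 13.8% to 45.2% of Kcn peaks overlapped a peak of the other list, against 10.9% to 39.8% of all peaks. In the siMyolinc TDP-43 list 13 of 239 (5.44%), 8 of 104 (7.69%) and 6 of 73 (8.22%) were found, against 5.88%, 7.08% and 7.36% of all. For MyoD 5 of 551 control Kcn peaks (0.907%) overlapped a siMyolinc peak, for Myogenin 2 of 953 (0.210%), and for Pol II S2P 10 of 87 (11.5%), against 1.77%, 0.355% and 10.5%. After extending all peaks by 500 bp the Kcn values were 10.9%, 1.47% and 27.6%, and the siMyolinc MyoD and Myogenin peaks are the 75 bp ones. In the siMyolinc TDP-43 list every control was found less often than in either other control list, and the same held for all peaks. Control TDP-43 Kcn peaks overlapped a control Pol II S2P peak in 10.0%, 17.3% and 21.9% of cases, against 12.0%, 19.7% and 21.6% of all peaks.

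A list of 25 genes of potassium transport outside the rule (channel partners, pacemaker channels, the sodium pump and cation-chloride transporters) was followed in the same lists. A promoter peak was found for 3, 1 and 1 of the 25 in control TDP-43 and for 2 in siMyolinc TDP-43, against 5.09%, 2.12%, 1.65% and 2.49% of all genes. Dpp6, a partner of Kcnd channels, had one in replicates 1 and 3 and after knockdown, and Abcc9, a sulfonylurea receptor, in replicate 1 and after knockdown. The numbers with a promoter peak were 0 and 5 for MyoD, 2 and 1 for Myogenin, and 1 and 4 for Pol II S2P, control before siMyolinc. A peak of any class was found for 20, 10 and 6 of the 25 in control TDP-43 and for 18 in siMyolinc TDP-43 (80.0%, 40.0%, 24.0% and 72.0%), against 49.3%, 26.8%, 22.3% and 45.1% of all genes.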

How the data were processed

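The authors deposited 1 annotated peak list for each of 10 libraries, called against IgG and annotated with HOMER on mm10, per the file headers and the submitters' processing notes. No source used here gives the HOMER version, the aligner or how peaks were called. The 4 input and IgG samples were not analysed here. Values used were position, annotation class, nearest gene, distance to its start and the deposited peak score. A deposited fraction per peak, HOMER's ratio column, was not used for a result. Scores in each list were whole multiples of 1 step for at least 99.9% of peaks (tolerance 0.05, the highest 1% set aside), and a score divided by its step was read as tags. Library depth assumes scaling to 10000000 tags, HOMER's default, which no header or label states. Precision follows from depths of 962363 to 3775523 tags. The script was tested on simulated scores and overlaps.

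Transcripts were matched to genes through the RefSeq table (GRCm38). Shares carry 95% Wilson intervals. TDP-43 was compared by an exact two-sided permutation test over libraries. Other groups had 1 library and no test. Alternatives were peaks at or above the median score, lists of equal length, genic peaks, no repeats, no noncoding names, other promoter windows and overlap rules, and leaving out each control TDP-43 library. Genes named were the 3 of each subfamily with peaks in most lists, the best peak and the 2 best promoter peaks of each list, genes with promoter peaks in 2 or more lists, sites in 3 or more lists (at most 15) or in 2 or more control TDP-43 lists (at most 12), and 9 genes known in muscle. Values of some genes that this rule takes are not reported here. The members and lists were chosen with earlier results of these data known. Python 3.11.15, pandas 2.3.3, numpy 2.4.6 and scipy 1.17.1 were used.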

Additional observations from a re-analysis of the deposited data

Results flagged for a closer look

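The number of Kcn genes with a promoter peak in siMyolinc cells, divided by that in control cells, was 0.154 for TDP-43 and 0.556 for Myogenin, but 5.00 for MyoD and 1.57 for Pol II S2P. For TDP-43 the siMyolinc list, with 2 genes, lay below each control list (20, 9 and 10), while for MyoD the siMyolinc list had 15 against 3. These values stand out because the antibodies moved in opposite directions under the same knockdown. Over all protein-coding genes the ratio was 2.79 with MyoD, 5.74 with Pol II S2P, 0.380 with Myogenin and 0.845 with TDP-43. Each lay on the same side of 1 as the Kcn ratio of that antibody. The Kcn ratios include noncoding names. For protein-coding Kcn genes alone the TDP-43 ratio was 0.167 and the others were unchanged. The TDP-43 count over all genes, 546 in siMyolinc cells, lay between those of the controls (1114, 464 and 361). It was above replicates 2 and 3 and below replicate 1, so the TDP-43 ratio over all genes gives no settled direction. The Kcn ratio for TDP-43 was 0.366 and 0.684 with peak centres within 1000 and 5000 bp of the start, that for MyoD 1.75 within 5000 bp, and that for Pol II S2P 0 with lists of equal length. The difference between antibodies was not tested, since all groups other than control TDP-43 held 1 library. The length of the lists moved in the same direction as this count for MyoD (71884 to 109541 peaks), Myogenin (115000 to 20453) and Pol II S2P (10716 to 116064), and its part was not tested. The TDP-43 siMyolinc list, with 24964 peaks, was longer than control lists 2 and 3 and shorter than list 1.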

How the results depend on the processing

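No paired analysis was possible because each siMyolinc group has 1 library, so fewer than 2 replicate numbers are shared. Of 124 alternatives over 17 results, 99 were classed as the same, 22 as moved and 3 as reversed. For the TDP-43 differences, control minus siMyolinc, the same class meant the same direction only, whatever the size. The Kcn intron share, for example, stayed in it at -35.5 points with peaks inside genes or promoters only, against -12.4 as reported. The settings for the promoter and exon shares, the ratios and the control peaks found again in siMyolinc lists were added after seeing the data. No TDP-43 comparison can pass 0.05, so a kept direction shows no more than that. Leaving out a control TDP-43 library in turn gave differences, control minus siMyolinc, of 8.05 to 10.6 points for the Kcn promoter share, 14.6 to 23.6 for the exon share, -15.8 to -9.84 for the intron share, 0.116 to 0.206 for the Kcn share of peaks, -15.5 (without replicate 1) to -3.50 (without replicate 3) for genes with a peak and 1.54 to 1.98 for the promoter share relative to all peaks, and a promoter gene ratio of 0.133 to 0.211.

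The difference in genes with a peak, -8.00 as reported, was 9.67 with lists of equal length and 3.33 with peaks inside genes or promoters only. The median over lists of Kcn genes with a promoter peak was 9, and 4.5 at or above the median score, 0 with equal length, where control MyoD, Myogenin and all siMyolinc lists had none, 21.0 with centres within 1000 bp of the start and 32.5 within 5000 bp. The siMyolinc to control ratio of such genes at equal length was 0 for TDP-43, 0 for Pol II S2P (reversed), and could not be formed for MyoD and Myogenin. Within 1000 bp it was 0.366 for TDP-43, and within 5000 bp 0.684 for TDP-43 and 1.75 for MyoD. At or above the median score it was 0.333 for Myogenin and 1.00 for Pol II S2P. Genic Kcn peaks per 1000 peaks had a median of 4.07, and 8.28 with genic peaks alone as the denominator.

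The mean share of control TDP-43 Kcn peaks found again after knockdown, 7.12%, was 2.98% with equal length, 9.52% without repeats, 4.33% where overlaps had to cover 50% of the shorter interval and 12.5% after extending peaks by 500 bp. Extension gave MyoD 10.9%, Myogenin 1.47% and Pol II S2P 27.6%. Equal length gave MyoD 0, Myogenin 0 and Pol II S2P 1.49%, and peaks at or above the median score gave Myogenin 0. The cause was not tested in these cases, apart from the smaller number of peaks that a score limit leaves.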
